A study of Mus musculus with 3 samples.

Results

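Mesangial cells hold the capillary loops of the glomerulus together, and pericytes wrap small vessels elsewhere in the kidney; both are contractile cells of the vessel wall that depend on platelet-derived growth factor. The genes described here are 7 markers of these cells, Gata3, Des, Serpine2, Art3, Rgs5, Cspg4 and Thy1, measured in isolated glomeruli. The genes were chosen for this role, and each was read through the probe sets that the platform annotation pairs with that gene alone. Of the 7 genes, 6 had such probe sets, 12 in all, of 34958 probe sets for 18194 genes; Serpine2 had none in the annotation used here and has no value below.

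The samples were glomeruli of male FVB/NJ mice, an inbred strain, without diabetes and aged 8 weeks, with 1 Affymetrix mouse expression array for each of 3 mice (n = 3 throughout). The mice are called mouse 1, mouse 2 and mouse 3 after the numbers in the sample titles, and the numbers imply no order. The series was set up to compare the diabetic OVE26 line with this strain; OVE26 mice were not analysed here, so all values describe the level in nondiabetic glomeruli and its spread between mice. Whole glomeruli were used, so a marker's value depends both on how many cells of its type an isolate held and on the RNA per cell, and these cannot be told apart.

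GATA3 is a transcription factor that mesangial cells of the glomerulus need, and T cells and the collecting duct use it too. Desmin, the product of Des, is the intermediate filament protein of muscle and of contractile vessel-wall cells. RGS5 shortens signals from G protein-coupled receptors in pericytes and arteriolar muscle, and Cspg4 encodes NG2, the pericyte surface proteoglycan. Art3 encodes a membrane protein of the ADP-ribosyltransferase family. Serpine2 encodes protease nexin-1, an inhibitor of thrombin and other serine proteases. Thy1 encodes a small surface protein that marks mesangial cells in the rat; in the mouse it is best known from T cells and neurons.

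Values are log2 GCRMA expression values, 1 for each probe set, so that a difference of 1 is a 2-fold difference in signal. Probe sets differ in how well they bind their target, so a value is set against the same probe set in another mouse and not against another gene. A probe set was taken as above background when it exceeded, on every array, a floor read from 80 olfactory or vomeronasal receptor probe sets, their 95th percentile on that array. This threshold was 2.58, 2.91 and 2.86 in mice 1, 2 and 3. Where a gene had several probe sets, the one with the highest mean stood for it. For the marker genes the others are given beside it. Other genes are given by the probe set of highest mean unless another is named. Further probe sets of those genes did not always give the same mouse order.

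Among the 6 marker genes that could be read, 5 exceeded background in every mouse: Gata3, Des, Art3, Rgs5 and Cspg4. Thy1 was below it in all mice. Over the whole table, 58.3% of genes passed this test on all arrays. In a second list of genes known from mesangial cells and pericytes, 18 of 22 were above background. They included Pdgfrb, the receptor of platelet-derived growth factor B, at 13.27 ± 0.075 (SD), and Itga8, the integrin α8 chain of mesangial cells, at 13.38 ± 0.12.

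**Figure D1:**
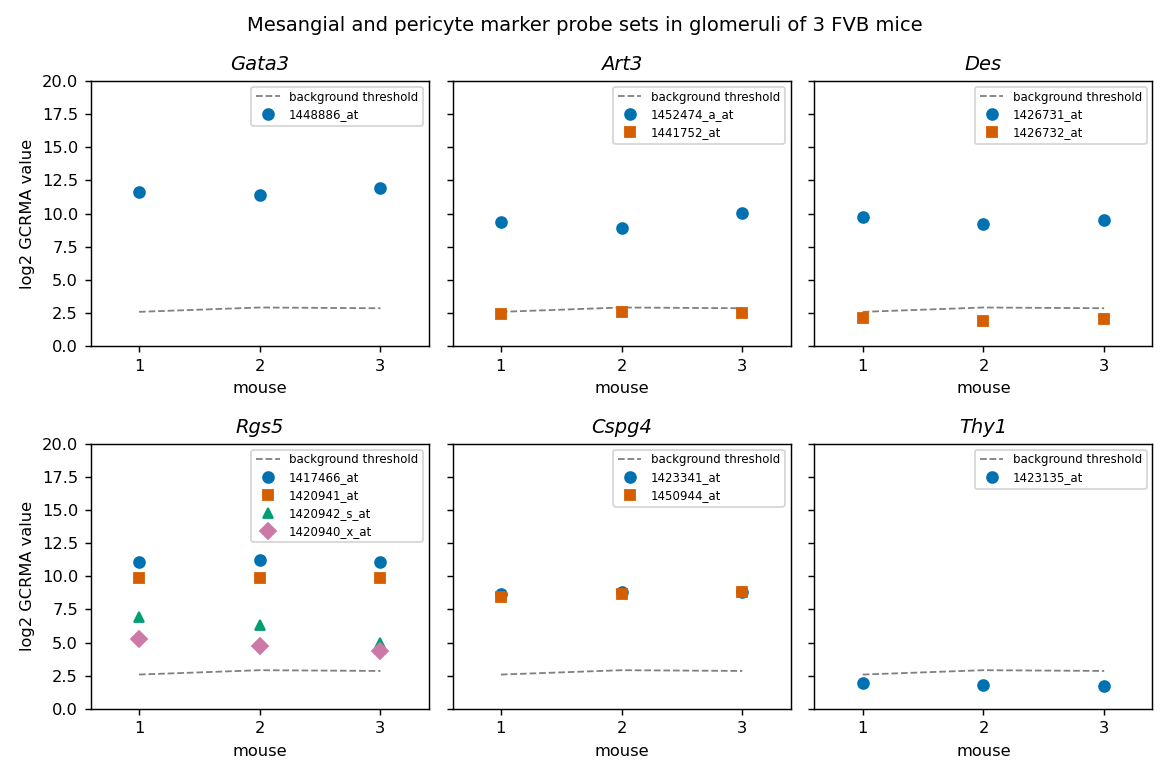
Log2 GCRMA value (vertical axis) of every probe set of the 6 measured marker genes in mice 1, 2 and 3 (horizontal axis), 1 point per array; the dashed line joins the background thresholds of the arrays. The points of Gata3, Cspg4 and the brightest Rgs5, Des and Art3 probe sets lie far above the dashed line, and those of Thy1 (1.71 to 1.97) lie under it.

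Gata3 was at 11.63, 11.42 and 11.90 in mice 1, 2 and 3, with a mean of 11.65 ± 0.24 (SD). Mouse 3 was the highest and mouse 2 the lowest, and their difference of 0.48 is a 1.39-fold range. Excess variance between mice was tested with an F test on limma's prior variance, fitted across all genes above background (the limma test). The adjusted p of Gata3 in this test was 0.971. T cell genes were at or near background. Of the 5 T cell genes that could be read, 0 passed the threshold on all arrays, 3 were below it on all and the other two gave mixed calls. Cd3e, a chain of the T cell receptor complex, was at 2.45, 2.40 and 2.13 in mice 1, 2 and 3. Of 9 collecting duct and distal nephron genes, 3 were above background on all arrays, 2 were below it on all and 4 gave mixed calls. The 3 were Umod and Slc12a1 of the thick ascending limb and Calb1. Umod, which encodes uromodulin, was at 12.47, 13.56 and 13.06 in mice 1, 2 and 3, and Slc12a1 at 10.09, 11.68 and 10.85. Both were highest in mouse 2. Calb1 was at 3.80, 3.64 and 5.55 in mice 1, 2 and 3, highest in mouse 3 and lowest in mouse 2 as Gata3 was. The water channel gene Aqp2 of the collecting duct was among the mixed ones at 2.65, 2.60 and 2.87. The part of these cells in the value of Gata3 was not tested.

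Art3 had the widest range among the probe sets that stand for a marker gene. Its probe set 1452474_a_at was at 9.36, 8.88 and 10.02 in mice 1, 2 and 3, a mean of 9.42 ± 0.57. Mouse 3 was again the highest and mouse 2 the lowest, the order seen for Gata3, and the range of 1.14 is 2.21-fold. It was the 1 marker of the 5 above background with a range of at least 2-fold, while 5.94% of all genes above background had one. The SD of Art3 was larger than that of 95.3% of all genes above background; its unadjusted p for excess variance in limma was 0.0177 and its adjusted p was 0.836. The range was 0.67 without mouse 2 and 0.48 without mouse 3, both under 2-fold. The other probe set of Art3, 1441752_at, was below the threshold on every array at 2.43, 2.55 and 2.48 in mice 1, 2 and 3, so only 1 probe set carries this range.

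Genes next to Art3 were read as well. In the RefSeq annotation Art3 has 3 start sites, and Cxcl10, a chemokine gene induced by interferon-γ, lies between the first of them and the other two. Cxcl10 was at 4.01, 4.01 and 6.53 in mice 1, 2 and 3, and so was also highest in mouse 3, with equal values in mice 1 and 2. Cxcl9, a chemokine gene that flanks Art3, passed the threshold in 1 mouse only, mouse 3, by a margin of 0.00637 (2.86, against 1.74 and 1.88 in mice 1 and 2). The other probe set of Cxcl9 was below the threshold on all arrays at 2.17, 1.98 and 2.17. Sdad1, another neighbour, was at 4.91, 4.84 and 5.49 by its brighter probe set, a 1.57-fold range in the mouse order of Art3, and at 4.35, 4.66 and 4.35 by the other, where mouse 2 was highest. The other neighbours, by their brightest probe sets, were not highest in mouse 3. Nup54, a nuclear pore gene, was at 9.28, 9.28 and 9.17 in mice 1, 2 and 3. Naaa was at 3.66, 3.54 and 3.59, and Scarb2 at 11.42, 11.43 and 11.30. Fam47e was below the threshold on all arrays. The neighbours were chosen after the values of Art3 were seen.

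The upstream stretches of the 3 RefSeq start sites of Art3 are shown because the array values cannot tell which start was in use, and because these starts lie on both sides of Cxcl10. Each is the 250 bases before a start, on the plus strand of GRCm38.p6, at chr5:92331577-92331826, chr5:92386637-92386886 and chr5:92387884-92388133, from RefSeq.
Art3 start 1: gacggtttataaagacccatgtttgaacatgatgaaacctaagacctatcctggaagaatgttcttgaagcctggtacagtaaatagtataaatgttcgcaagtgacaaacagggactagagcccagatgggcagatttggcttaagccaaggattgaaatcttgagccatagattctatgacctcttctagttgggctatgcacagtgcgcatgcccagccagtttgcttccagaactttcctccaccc
Art3 start 2: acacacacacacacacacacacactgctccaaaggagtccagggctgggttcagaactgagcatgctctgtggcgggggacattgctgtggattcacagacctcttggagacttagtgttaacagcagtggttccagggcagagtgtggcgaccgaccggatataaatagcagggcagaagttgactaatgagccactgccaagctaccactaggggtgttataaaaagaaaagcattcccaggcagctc
Art3 start 3: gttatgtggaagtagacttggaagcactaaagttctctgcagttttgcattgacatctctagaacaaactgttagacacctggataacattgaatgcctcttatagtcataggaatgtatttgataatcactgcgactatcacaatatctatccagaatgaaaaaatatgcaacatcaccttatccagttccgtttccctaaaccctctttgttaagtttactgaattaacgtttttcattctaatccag
No capitals appear in them, since none of the motifs searched was found: AGATAA, which GATA factors bind, the CArG box of serum response factor, and TTCNNNGAA, which STAT factors bind. Both strands were searched. These motifs occurred in 9.99%, 1.47% and 7.02% of 32851 RefSeq upstream stretches of the same length. The searches describe only these letters in these windows. Variant forms of the motifs were not searched, so the stretches may hold other sites for these factors.

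Interferon-inducible genes had the mouse order of Art3 and Gata3. Of 8 such genes, listed after their values in these mice were known, 7 had a probe set, and all 7 were highest in mouse 3 and lowest in mouse 2. Since the list was made with these values known, this count is no test. Of all genes above background, 36.3% were highest in mouse 3 and 35% were lowest in mouse 2. Gbp2, a guanylate-binding protein gene, was at 9.26, 8.45 and 12.78 in mice 1, 2 and 3, and Irf1, a transcription factor gene of the interferon response, was at 8.62, 8.01 and 10.23. The summed signal of the 7 genes on the linear scale was 1827, 1054 and 13156. Mouse 3 also had the highest values of 7 of 7 proximal tubule genes above background, with summed signals of 188, 291 and 2061 in mice 1, 2 and 3. Of these 7 genes, 6 were lowest in mouse 1, which is not the order of Art3 and Gata3. The part of either list in the values of Art3 and Gata3 was not tested.

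By the rule for like patterns, the 3 genes whose centred profile over the 3 arrays lay nearest to that of Art3 were Tnfsf10, Triobp and Fam20a. Their root-mean-square differences from Art3 were 0.0152, 0.0157 and 0.0187 on the log2 scale. Triobp encodes an actin-binding protein and Fam20a a pseudokinase of the secretory pathway. Tnfsf10, which encodes the death receptor ligand TRAIL, was at 8.44, 8.01 and 9.13 in mice 1, 2 and 3. Profiles of 3 points are easily matched, and 43 of 10610 genes above background lay within 0.1 of Art3.

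Des was read by 1426731_at at 9.77, 9.25 and 9.54 in mice 1, 2 and 3, a mean of 9.52 ± 0.26. Mouse 1 was the highest and mouse 2 the lowest, a 1.44-fold range, and the adjusted p in limma was 0.971. The other probe set, 1426732_at, was below the threshold in all mice at 2.11, 1.86 and 2.06. Smooth muscle genes, which share desmin's cell types, did not follow this order. Of 8 such genes 6 were above background, and 0 of the 6 were lowest in mouse 2, beside 35% of all genes above background. Of the 6, 5 were highest in mouse 2 and 5 were lowest in mouse 3. The shares of all genes above background with these extremes were not counted. Acta2, the smooth muscle actin gene, was at 10.54, 10.88 and 10.04 in mice 1, 2 and 3. Striated muscle genes were below background on all arrays for 4 of 5, and the fifth, Mylpf, was at 3.36, 3.07 and 2.96. Nearest to the profile of Des were Slc4a1, Mfsd5 and Rinl (root-mean-square differences of 0.00306, 0.00402 and 0.00424). Of 10610 genes above background, 557 lay within 0.1, so a near match to Des is easily found. A fixed limit takes in more genes when the range of a profile is small. The count therefore does not show how common the mouse order of Des was.

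Rgs5 had 4 probe sets above background, and they disagreed on the spread between mice. The brightest, 1417466_at, was at 11.08, 11.22 and 11.04 in mice 1, 2 and 3, a mean of 11.12 ± 0.095 and a 1.13-fold range, with an adjusted p of 0.973 in limma. The next, 1420941_at, was at 9.83, 9.84 and 9.84, with an SD of 0.00359. These sets show no mouse apart from the others. By contrast 1420942_s_at was at 6.94, 6.30 and 4.93 in mice 1, 2 and 3, a 4.05-fold range, and 1420940_x_at at 5.25, 4.71 and 4.34, a 1.89-fold range. Both were highest in mouse 1 and lowest in mouse 3.

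The 3 dimmer sets of Rgs5 share 1 source sequence in the platform annotation. The suffixes _s_at and _x_at are those Affymetrix gives to probe sets whose probes can match more than 1 transcript. In a limma fit over all 18479 probe sets above background, 1420942_s_at had an unadjusted p of 0.0156 and an adjusted p of 0.97, and 1420940_x_at had an adjusted p of 0.97; 5.88% of those probe sets had a range of at least 2-fold. Leukocyte genes had the mouse order of these last sets, 1420942_s_at and 1420940_x_at. Of 5 leukocyte genes, 4 were above background, and all 4 were highest in mouse 1 and lowest in mouse 3, with summed linear signals of 1056, 444 and 183 in mice 1, 2 and 3. Ptprc, the pan-leukocyte phosphatase gene, was at 7.43, 6.58 and 5.13, and Itgam, an integrin gene of myeloid cells, was below background. The order was not particular to leukocyte genes. Of 6 glomerular endothelial genes above background, 5 were highest in mouse 1 and 4 were lowest in mouse 3. All 5 podocyte genes above background were lowest in mouse 3, and 2 of them were highest in mouse 1. The shares of all genes above background that were highest in mouse 1 or lowest in mouse 3 were not counted. The counts of leukocyte, endothelial and podocyte genes therefore do not show that this order was unusual. The part of any of these cells in the Rgs5 values was not tested.

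The upstream stretch of Rgs5 is shown because it was the only one among the marker genes in which a searched motif was found. It is the 250 bases before the start on the plus strand of GRCm38.p6, at chr1:169655251-169655500, from RefSeq, and the capitals mark TTATCT, which is AGATAA read on the other strand, 238 to 233 bases before the start.
Rgs5: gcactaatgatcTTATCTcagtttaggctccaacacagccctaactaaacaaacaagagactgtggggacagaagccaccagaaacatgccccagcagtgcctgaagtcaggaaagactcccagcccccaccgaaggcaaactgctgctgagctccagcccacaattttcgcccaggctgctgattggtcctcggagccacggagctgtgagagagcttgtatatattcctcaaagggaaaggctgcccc
RefSeq entries were found for 6 of the 7 marker genes, Serpine2 among them, with 8 start sites in all. AGATAA was found in 1 of the 8 stretches, that of Rgs5, beside 9.99% of 32851 RefSeq upstream stretches of the same length. A match in 1 of 8 is near that share. The CArG box and TTCNNNGAA were found in none of the 8, beside 1.47% and 7.02%. A match is a description of letters and does not show that GATA3 binds there.

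**Figure D2:**
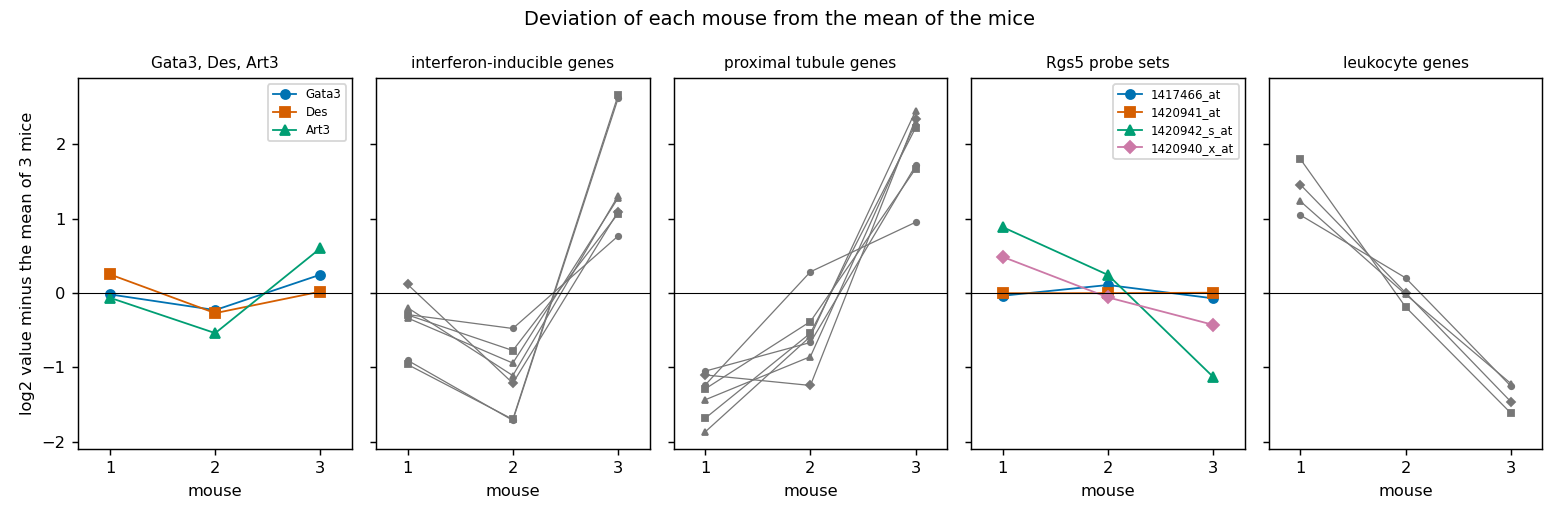
Log2 value minus the mean of the 3 mice (vertical axis) for each mouse (horizontal axis), in 5 panels: Gata3, Des and Art3; interferon-inducible genes; proximal tubule genes; the 4 probe sets of Rgs5; and leukocyte genes, all above background. A line joins the values of 1 probe set and implies no order of mice. Art3 and Gata3 are lowest in mouse 2 and highest in mouse 3, as are the interferon-inducible genes, which were listed after their values were known. In mouse 3, 2 of the 4 Rgs5 sets fall below 0 with the leukocyte genes, while the other sets stay near 0.

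Cspg4 had the smallest SD among the probe sets that stand for a marker gene. Its probe set 1423341_at was at 8.69, 8.80 and 8.82 in mice 1, 2 and 3, a mean of 8.77 ± 0.072 and a 1.10-fold range. The other probe set, 1450944_at, was at 8.44, 8.63 and 8.80, a mean of 8.63 ± 0.18 and a 1.29-fold range. Both placed mouse 1 lowest and mouse 3 highest, although after quantile normalisation or centring of the arrays mouse 2 was highest for 1423341_at; both were above background on every array; the adjusted p in limma was 0.993 for the gene.

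Thy1 was at 1.97, 1.76 and 1.71 in mice 1, 2 and 3, under the threshold of each array by at least 0.62. Its single probe set therefore gives only an upper bound, and these values do not show that the transcript was absent. Among genes of cells that carry Thy1 in mice, 0 of 4 genes of neurons and Schwann cells were above background on any array, and 0 of 5 T cell genes were above it on all. Fibroblasts can carry Thy1 as well, and of 6 fibroblast genes 3 were above background on all arrays and 3 were below it on all. Those below it were Lum, Dpt and Col1a1, although another probe set of Col1a1 exceeded it in mouse 2 only, at 3.01. Of the 3 above it, Dcn lay near the threshold at 3.50, 3.14 and 3.23 in mice 1, 2 and 3. The others were Col1a2, a type I collagen gene, at 10.91, 11.26 and 10.80, and the growth factor receptor gene Pdgfra at 10.95, 10.42 and 10.35.

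Over the 18 other mesangial and pericyte genes above background the median SD was 0.119, against 0.157 over all genes above background. In the lowest, middle and highest terciles of mean level the median SD of all genes was 0.226, 0.160 and 0.114. The 18 genes did not all lie in the highest tercile. The highest SD among the 18 was 0.349 (Higd1b, a pericyte marker gene, at 3.37, 3.17 and 3.85 in mice 1, 2 and 3). Of the 18, 0 had a 2-fold range, beside 5.94% of all genes above background. Agtr1a, the angiotensin II receptor gene of mesangial cells, was at 11.81, 11.62 and 11.51 in mice 1, 2 and 3. Foxd1, a transcription factor gene of the kidney stroma, was at 11.93, 11.67 and 11.94. Of the 18, 4 were lowest in mouse 2, as Gata3, Art3 and Des were, beside 35% of all genes above background. In mouse 3, 6 of the 18 were highest, beside 36.3% of all genes above background. Notch3, a receptor gene of vessel-wall cells, was at 9.29 ± 0.25 and lowest in mouse 1 by its brightest probe set. Its other probe set, at 5.83, 5.80 and 5.73 in mice 1, 2 and 3, was highest in mouse 1. The potassium channel genes of pericytes were measured, with Kcnj8 at 3.95 ± 0.088 and Abcc9, which encodes its partner subunit, at 9.90 ± 0.12. Of the 4 that were not above background on all arrays, Vtn (1.73 ± 0.074), Anpep and Cox4i2 were below it on every array and Tbx18 exceeded it in mouse 1 only.

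**Figure D3:**
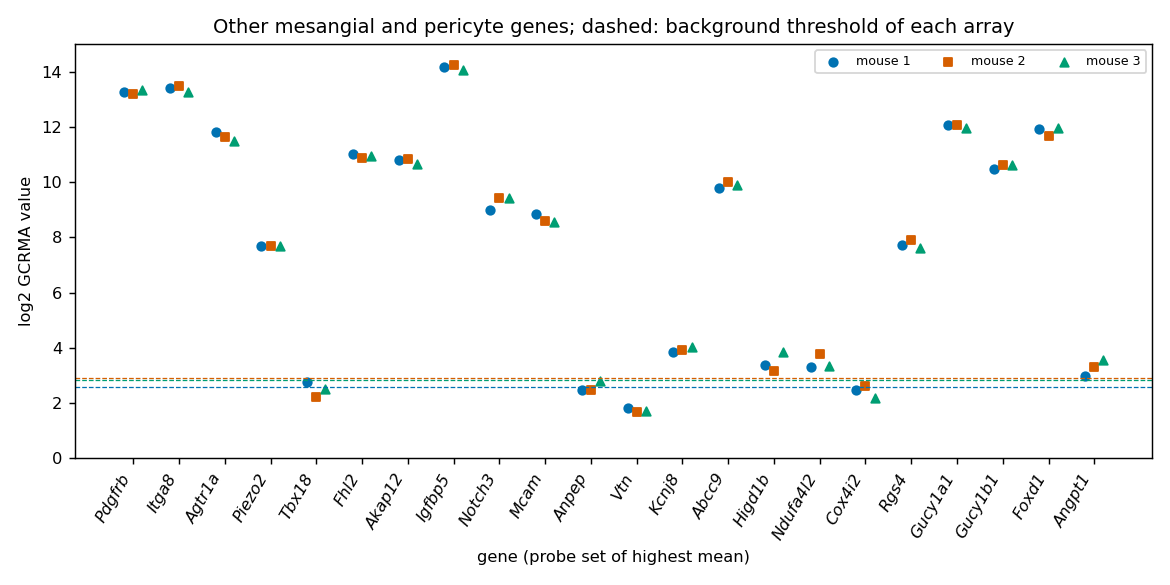
Log2 GCRMA value (vertical axis) of the probe set that stands for each of 22 other mesangial and pericyte genes (horizontal axis), with 1 point per mouse and a dashed line for the background threshold of each array. For 18 genes all points lie above the lines, with SDs over the mice of 0.0129 to 0.349 (Higd1b, with a range of 0.68).

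The spread between mice was then set against all genes. The median SD of the 5 markers above background was 0.239, that of all 10610 genes above background was 0.157, with quartiles of 0.0904 and 0.260. In the highest tercile of mean level, from 9.01 upwards, which holds Gata3, Des, Art3 and Rgs5, the median SD of all genes was 0.114. Of the 5 markers 3 were lowest in mouse 2 (Gata3, Art3 and Des), against 35% of all genes above background, and 3 were highest in mouse 3 (Gata3, Art3 and, as deposited but not after rescaling, Cspg4), against 36.3%. The difference of mouse 2 from the mean of the other mice was -0.34 for Gata3, -0.41 for Des and -0.81 for Art3 on the log2 scale.

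The limma test compares a gene's variance over the mice with a prior variance estimated from all genes above background. At an adjusted p under 0.05 the test called 0 of the 5 markers and 0 of all 10610 genes (0% called), and at an unadjusted p under 0.05 it called 1 marker, Art3, and 493 genes, or 4.65%. The prior, with 3.11 degrees of freedom, comes from the spread between mice of these same genes. The p therefore ranks a gene's spread against that of the others, and some genes fall under 0.05 by construction. With 3 arrays, such a prior and 0 calls among all genes, the test does not show that the markers were equal between mice. No other tool was run on this question. The labels name separate mice, so the spread holds both animal and array differences.

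**Figure D4:**
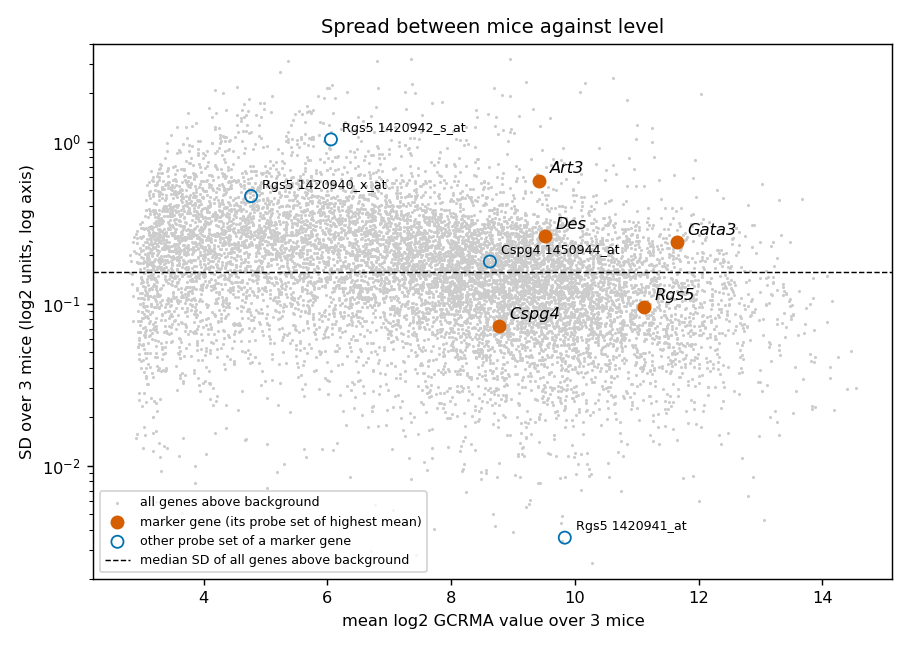
SD over the 3 mice in log2 units (vertical log axis) against the mean log2 value (horizontal axis). Grey points are all 10610 genes above background, filled points the 5 marker genes, open circles their other probe sets above background, and the dashed line the median SD of all genes (0.157). Art3 (0.574) has a larger SD than 95.3% of all genes, with other genes of its level above it, and the Rgs5 probe sets span SDs of 0.00359 to 1.03.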

How the data were processed

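Glomerular RNA of 3 nondiabetic FVB/NJ mice, amplified from its 3′ end, was read on 1 array per mouse. The deposited values are log2 values that the authors summarised with GCRMA, per the submitters' processing notes; the GCRMA version and the set of arrays normalised together are not given in the sources used here. That the scale is log2 was judged from the range (0.67 to 14.76; array medians 2.82, 2.85 and 2.82). No further normalisation was applied, and 0 columns were left unused. Of 45101 probe sets, 34958 had 1 gene symbol and 932 several; the latter were not used, and 34754 identifiers matched RefSeq (GRCm38.p6). With 3 arrays, precision is limited by their number and by signal over background.

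Each gene's variance over the mice was referred to an F distribution in R 4.3.3, which is the limma test named above. Its prior variance and degrees of freedom came from limma 3.58.1 (trend on mean level, robust fit, highest prior degrees of freedom). The test was one-sided (upper tail), with Benjamini-Hochberg over all genes above background and variances floored at 1e-05. It was first run on simulated data, and that outcome is not given here. Named genes are the 7 markers with all their probe sets, genes of the listed cell types, and the 3 nearest profiles for the markers with the widest range (Art3 and Des). The members, lists and thresholds were chosen with earlier results of these data known. Lists are described by counts and medians. Alternatives were the mean over probe sets, a background at the 99th percentile, quantile normalisation, centring on the median, no filter, priors without trend or robust fit, and leaving out each mouse. Promoter stretches were searched with Python 3.11.15.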

Additional observations from a re-analysis of the deposited data

How the results depend on the processing

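The number of markers above background was 5 under every alternative that changes it, and the number with excess variance was 0 under every alternative run, as was the count over all genes (432 to 656 genes at an unadjusted p under 0.05). The median SD of the markers was 0.188 to 0.247 under alternative thresholds, scalings and filters, and 0.149 to 0.205 with 1 mouse left out. The count of markers with a 2-fold range, 1 as reported (Art3), was 0 with the mean over all probe sets (SD of Art3 0.274, its other set being below background), and ran from 0 to 1 with 1 mouse left out: it was 0 without mouse 2 or mouse 3. The adjusted p of Art3 ran from 0.705 to 0.984 over the alternatives. For Rgs5 the SD was 0.376 with the mean over probe sets, against 0.0953 for its brightest set. No paired analysis was possible because the labels give a single group. Dim probe sets such as that of Thy1 have only an upper bound.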
